A study of Mus musculus with 13 samples.

Results

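The genes studied here encode the extracellular and membrane parts of WNT signalling, with 2 axins and the TCF/LEF factors downstream. They were taken by symbol from the gene entries of the deposited count table, which gave 57 of 35793 genes. These were 19 WNT ligands, 4 R-spondins, 10 frizzled receptors, 4 co-receptors (Lrp5, Lrp6, Ror1 and Ror2), 3 R-spondin receptors (Lgr4, Lgr5 and Lgr6), 5 secreted frizzled-related proteins, 4 dickkopfs, 2 kremens, 2 axins and 4 TCF/LEF factors. Of the 57 genes, 35 had enough reads to be tested and 22 did not.

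Messenger RNA was sequenced from left ventricle outside the ischaemic zone in 13 C57BL/6JO1aHsd mice, 8 to 10 weeks old when treatment began. In the MI+FG-3149 group (n = 5) the left anterior descending artery was permanently tied, which causes a myocardial infarction (MI), and the mice were given 10 mg/kg of FG-3149, a mouse monoclonal antibody against connective tissue growth factor (CTGF). In the MI+IgG group (n = 5) the same artery was tied and an IgG antibody was given at 10 mg/kg. The sham group (n = 3) had a sham operation and no antibody. All 3 groups carried the time label 1W+6W, which the labels do not spell out. Since the sham mice received no antibody, effects of the infarct and of giving IgG cannot be told apart in a comparison with sham.

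WNT ligands are secreted, lipid-modified proteins that bind frizzled receptors on the cell surface. With the co-receptors Lrp5 or Lrp6 they stop a complex built on axin from degrading beta-catenin, which then acts in the nucleus with TCF/LEF factors; with other co-receptors such as Ror2 they act through planar polarity or calcium instead. R-spondins and their Lgr receptors keep frizzleds on the surface. By contrast, secreted frizzled-related proteins bind the ligands, and dickkopfs such as Dkk1, acting with kremens, withdraw Lrp5 and Lrp6. In the heart the pathway is known from valve and chamber development and from fibroblasts and scar formation after injury.

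The secreted frizzled-related proteins Sfrp2, Frzb and Sfrp1 and the dickkopf Dkk3 rose in both infarcted groups against sham, while the R-spondin receptor Lgr6 fell in each. The ligand Wnt5a was also called lower in each, a result that changed with the processing, as given below. In MI+FG-3149 hearts 13 of the 35 tested genes were called against sham (37.1%, beside 29.5% of all 13434 genes tested), 10 of them higher and 3 lower, beside 15.6% and 13.9% of all genes. In MI+IgG hearts 17 of 35 were called against sham (48.6%, beside 33.7% of all genes), 11 higher and 6 lower, beside 17.8% and 15.9% of all genes. Wnt9b, Rspo1 and Kremen2 had no sham library over the minimum level for testing and so entered through infarcted libraries; of the other 32 tested genes 13 were called in MI+FG-3149 and 16 in MI+IgG hearts, 10 of them higher in each. Between MI+FG-3149 and MI+IgG hearts 0 of 35 were called, beside 1.07% of all genes (0.916% higher and 0.156% lower). The call rests on edgeR's quasi-likelihood test with a p adjusted after Benjamini and Hochberg over all genes tested, and a gene passed where this was under 0.05. Levels are CPM, a gene's reads scaled to the size of the library with TMM factors, and errors of means are SD over 5 MI+FG-3149, 5 MI+IgG and 3 sham hearts. In these bulk samples fewer cells of a type and less RNA per cell cannot be told apart.

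The 250 bases upstream of the transcription start are shown for a pair of genes that rose after infarction (Sfrp2 and Frzb) and a pair that fell in MI+IgG hearts (Wnt4 and Lgr6), from RefSeq on GRCm38.p6, each 5′ to 3′ on its own strand. Capitals mark TCAAAG, the reverse complement of CTTTGA, the core that TCF/LEF factors are known to bind. The windows are chr3:83766071-83766320 (plus strand) for Sfrp2, chr2:80447397-80447646 (minus) for Frzb, chr4:137277385-137277634 (plus) for Wnt4 and chr1:135105277-135105526 (minus) for Lgr6.
Sfrp2: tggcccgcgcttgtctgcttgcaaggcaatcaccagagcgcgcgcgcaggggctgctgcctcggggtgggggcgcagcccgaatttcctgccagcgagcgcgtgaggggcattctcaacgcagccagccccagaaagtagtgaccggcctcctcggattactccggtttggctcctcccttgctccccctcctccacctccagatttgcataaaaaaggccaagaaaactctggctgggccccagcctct
Frzb: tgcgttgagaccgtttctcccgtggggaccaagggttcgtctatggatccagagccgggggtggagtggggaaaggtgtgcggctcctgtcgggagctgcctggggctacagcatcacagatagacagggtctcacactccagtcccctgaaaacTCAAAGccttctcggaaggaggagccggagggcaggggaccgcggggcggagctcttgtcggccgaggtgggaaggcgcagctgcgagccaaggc
Wnt4: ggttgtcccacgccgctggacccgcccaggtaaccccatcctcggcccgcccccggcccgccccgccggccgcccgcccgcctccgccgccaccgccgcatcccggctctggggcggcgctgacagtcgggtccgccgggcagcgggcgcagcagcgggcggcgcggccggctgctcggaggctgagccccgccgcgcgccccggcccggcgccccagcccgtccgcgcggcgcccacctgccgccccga
Lgr6: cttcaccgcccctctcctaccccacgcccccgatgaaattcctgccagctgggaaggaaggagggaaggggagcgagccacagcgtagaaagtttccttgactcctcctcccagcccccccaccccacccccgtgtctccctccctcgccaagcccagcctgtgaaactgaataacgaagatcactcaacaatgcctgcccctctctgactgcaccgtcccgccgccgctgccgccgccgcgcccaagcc
The Frzb window held 1 match and the other 3 windows held 0. Promoters were found for 38 of the 57 genes, 46 windows in all, and CTTTGA occurred on either strand in 7 of these 46, in Dkk1, Frzb, Fzd1, Lef1, Ror1, Wnt11 and Wnt5b. It occurred in 13.8% of the 32851 promoter windows of the table. A match describes the letters of a window and not a site in use.

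Depth and the libraries come before the results. Library totals were 10954922 to 12794823 estimated counts in MI+FG-3149, 13084735 to 17567238 in MI+IgG and 12025880 to 14999813 in sham hearts, and every MI+FG-3149 library was smaller than every MI+IgG library. MI+FG-3149 replicate 3 and MI+IgG replicates 1 and 2 lay apart from their groups on the first 2 principal components. Of Myl7, a myosin light chain of atrial muscle picked out after its values were seen, MI+IgG replicates 4 and 5 held 8.37 and 13.7 CPM, against at most 0.273 CPM in any other library (MI+FG-3149 replicate 3). Counts of called genes are given without these libraries below. The first exons of genes of the set, where 17 genes had at least 20 reads, held 3.21% to 4.95% of these genes' exon reads in MI+FG-3149, 1.67% to 3.68% in MI+IgG and 0.787% to 1.22% in sham libraries. This share pools the 17 genes, so it also rises where genes with many first-exon reads rise as a whole. The first exon of Sfrp2 held 11.91 CPM in MI+FG-3149, 7.45 CPM in MI+IgG and 0.43 CPM in sham hearts. That of Frzb held 3.33, 4.64 and 1.06 CPM, and that of Sfrp1 3.77, 3.26 and 0.92 CPM, in the same order. In 15 of the 17 the first exon was higher in MI+FG-3149 than in MI+IgG hearts, as in Kremen1 (1.35 CPM in MI+FG-3149, 0.10 CPM in MI+IgG and 0.04 CPM in sham hearts) and Lrp5 (0.59 CPM in MI+FG-3149, 0.05 CPM in MI+IgG and 0.01 CPM in sham hearts). The part of this difference in the levels of the genes was not tested. Cardiomyocyte markers summed to 84089 to 90892 CPM in MI+FG-3149 hearts, 79368 to 86938 CPM in MI+IgG hearts and 92293 to 100799 CPM in sham hearts, and 0 of the 10 markers were at 0 in every library. Ctgf, which encodes the protein that FG-3149 binds, was at 286, 325, 183, 234 and 213 CPM in MI+FG-3149 hearts, 233, 439, 333, 307 and 310.0 CPM in MI+IgG hearts and 37.8, 42.8 and 46.9 CPM in sham hearts; an antibody against the protein gives no check of the labels at the RNA level, and Ctgf was not called between the infarcted groups (log2 fold change -0.39, SE 0.19, edgeR adjusted p 0.394).

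Per length, Kremen1 had the highest level of the set in all 3 groups. On the deposited RPKM values, summed over a gene's transcripts, Kremen1, a receptor for dickkopfs, averaged 61.4 ± 5.76 RPKM in MI+FG-3149, 61.6 ± 5.89 RPKM in MI+IgG and 51.5 ± 0.451 RPKM in sham hearts. Lrp5 averaged 20.7 ± 0.644 RPKM in MI+FG-3149, 20.6 ± 1.88 RPKM in MI+IgG and 17.8 ± 0.717 RPKM in sham hearts, and Fzd4, a frizzled of blood vessels, averaged 12.9 ± 2.17 RPKM in MI+FG-3149, 13.7 ± 1.57 RPKM in MI+IgG and 12.2 ± 0.825 RPKM in sham hearts. In each group Kremen1 lay above Lrp5 by far more than the spread of either. Sfrp2 averaged 23.3 ± 12.7 RPKM in MI+FG-3149, 20.8 ± 12.7 RPKM in MI+IgG and 1.19 ± 0.386 RPKM in sham hearts. In infarcted hearts its spread covered the means of Lrp5 and Fzd4, whereas in sham hearts it lay below 20 other genes of the set.

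Lgr6 stood next to Lrp5 in sham hearts, and its mean was below those of Fzd4 and Lrp6 in infarcted hearts, with 8.95 ± 0.534 RPKM in MI+FG-3149, 8.56 ± 2.17 RPKM in MI+IgG and 14.9 ± 1.32 RPKM in sham hearts. Lrp6 averaged 9.43 ± 0.646 RPKM in MI+FG-3149, 10.2 ± 0.198 RPKM in MI+IgG and 10.1 ± 0.276 RPKM in sham hearts. Axin1, Fzd6 and Lgr4 followed, and did not differ from each other beyond their spread in sham hearts, where their means lay between 7.76 and 7.97 RPKM. Among ligands the highest per length in sham hearts was Wnt5a, with 2.35 ± 0.256 RPKM in MI+FG-3149, 2.19 ± 0.315 RPKM in MI+IgG and 3.36 ± 0.382 RPKM in sham hearts. Wnt9a followed with 3.07 ± 0.261 RPKM in MI+FG-3149, 2.75 ± 0.312 RPKM in MI+IgG and 2.61 ± 0.347 RPKM in sham hearts. In infarcted hearts the mean of Wnt9a was above that of Wnt5a, by about the spread between libraries. Wnt4, Wnt11 and Wnt2b lay below them. Wnt9b averaged 0.142 ± 0.0804 RPKM in MI+FG-3149, 0.287 ± 0.166 RPKM in MI+IgG and 0.0978 ± 0.0343 RPKM in sham hearts. Wnt5b is not ranked here, since its deposited transcript entries hold only part of its reads. In sham replicate 1 their shares were 4.13%, 4.34% and 11.6%.

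**Figure D1:**
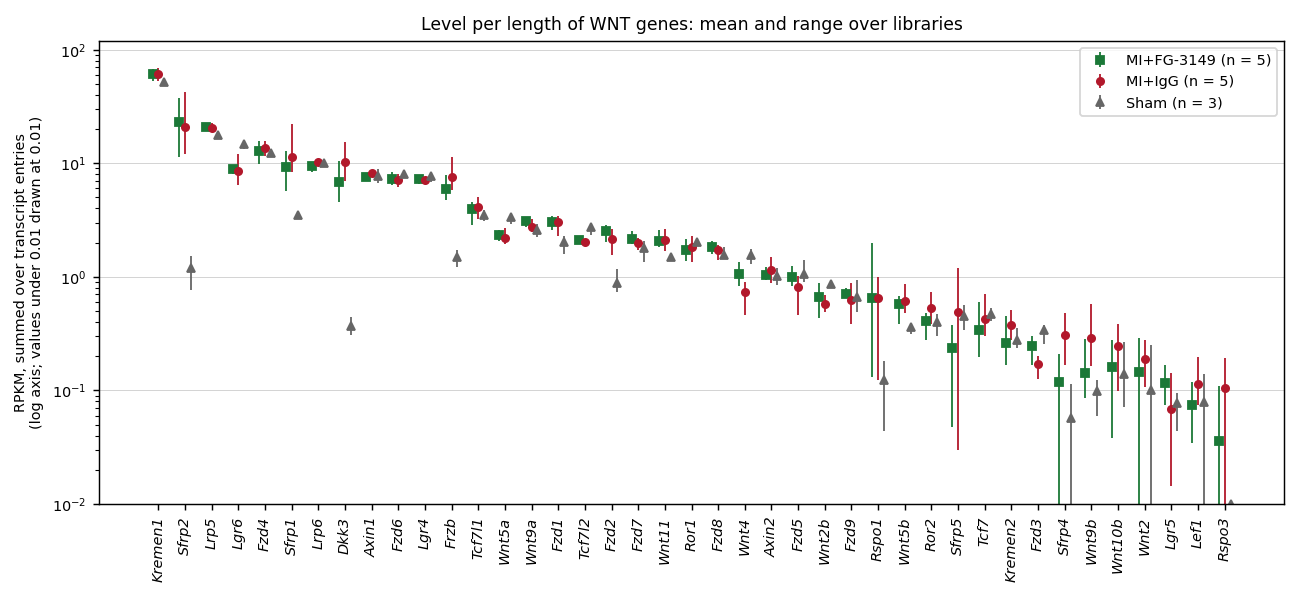
Deposited RPKM of the WNT genes with a mean of at least 0.1 in some group, on a log axis, ordered by the highest group mean; squares are MI+FG-3149 (n = 5), circles MI+IgG (n = 5) and triangles sham (n = 3), with lines from the lowest to the highest library. Kremen1 stands highest, and Sfrp2, Sfrp1, Dkk3 and Frzb lie higher in infarcted than in sham hearts.

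Ligands went both ways after infarction. Of 19 WNT ligands 7 were tested. Against sham, 2 were higher (Wnt11 and Wnt5b), 1 was lower (Wnt5a) and 4 were not called in MI+FG-3149 hearts. In MI+IgG hearts 3 were higher (Wnt9b, Wnt11 and Wnt5b), 3 were lower (Wnt4, Wnt5a and Wnt2b) and Wnt9a was not called; Wnt9b is 1 of the genes that entered the test through infarcted libraries.

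Wnt4, a ligand best known from kidney and gonad development (Entrez gene 22417, mm10 chromosome 4, 137277635 to 137299501, plus strand), was at 5.13, 4.35, 3.91, 3.26 and 3.66 CPM in MI+FG-3149 hearts, 3.41, 2.42, 1.78, 3.24 and 3.15 CPM in MI+IgG hearts and 5.88, 5.08 and 6.71 CPM in sham hearts. All 5 MI+IgG hearts lay below all 3 sham hearts, and the MI+FG-3149 hearts lay between, overlapping both. Against sham, the log2 fold change was -0.53 in MI+FG-3149 hearts (SE 0.20, edgeR adjusted p 0.051), which missed the threshold, and -1.08 in MI+IgG hearts (SE 0.20, adjusted p 0.00042). Of 688.6 estimated reads in Wnt4 exons over all libraries, 98.9% lay in the last exon, which holds 83.4% of the exon length, so the difference is measured almost wholly there; whether these reads come from full-length Wnt4 transcripts was not tested.

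Wnt5a, the main ligand of planar polarity and calcium signalling (Entrez gene 22418, mm10 chromosome 14, 28505473 to 28525515, plus strand), was at 8.98, 8.48, 11.01, 10.7 and 10.8 CPM in MI+FG-3149 hearts, 10.8, 7.77, 8.20, 7.66 and 9.37 CPM in MI+IgG hearts and 14.4, 13.9 and 12.02 CPM in sham hearts. Every infarcted heart lay below every sham heart. Its log2 fold change was -0.43 (SE 0.13, edgeR adjusted p 0.0151) in MI+FG-3149 and -0.63 (SE 0.12, adjusted p 0.000766) in MI+IgG hearts against sham, and of 5 exons with at least 20 reads 2 were lower and 3 higher in MI+FG-3149 than in sham, whereas 5 of 5 were lower in MI+IgG than in sham. The last exon, which holds most of the reads, was at 6.73 CPM in MI+FG-3149, 6.4 CPM in MI+IgG and 10.47 CPM in sham hearts. On the deposited RPKM of the highest transcript entry, tested with limma, Wnt5a was not called: with log2(RPKM + 1) the log2 fold change was 0.226 in MI+FG-3149 (adjusted p 0.235) and -0.208 in MI+IgG (adjusted p 0.279), and with log2(RPKM + 0.1) it was 0.370 in MI+FG-3149 (adjusted p 0.260) and -0.348 in MI+IgG (adjusted p 0.298). The antisense gene Gm2670 overlaps Wnt5a, and the strand setting of the counting is not given in the sources used here, so reads of both cannot be told apart. The call against sham in MI+FG-3149 hearts was lost without sham replicate 1 or 2.

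Wnt2b, a ligand close in sequence to Wnt2, was at 2.22, 2.06, 3.27, 1.58 and 2.77 CPM in MI+FG-3149 hearts, 1.96, 2.42, 2.01, 1.71 and 2.15 CPM in MI+IgG hearts and 3.18, 3.25 and 2.82 CPM in sham hearts. MI+IgG hearts lay below sham hearts, while MI+FG-3149 hearts spanned both. In MI+IgG hearts it fell by 0.59 on the log2 scale against sham (SE 0.21, edgeR adjusted p 0.0397), and this call was lost without any 1 of the sham replicates and without MI+IgG replicate 1, 3, 4 or 5, or replicates 4 and 5 together. The MI+IgG call was also lost without the low-count filter, with the replicate number added to the fit and with log2(RPKM + 0.1). In MI+FG-3149 hearts the log2 fold change was -0.37 (SE 0.22, adjusted p 0.203). Of 424.0 reads in its exons, 93.9% lay in the last exon, which has 67.1% of the length.

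Wnt11, a ligand of heart and muscle development, was at 5.21, 7.10, 5.28, 5.86 and 5.86 CPM in MI+FG-3149 hearts, 4.65, 6.64, 5.45, 7.07 and 5.22 CPM in MI+IgG hearts and 4.13, 4.13 and 4.23 CPM in sham hearts. Every infarcted heart lay above every sham heart, by a small margin. Wnt11 rose by a log2 of 0.50 (SE 0.16, edgeR adjusted p 0.0286) in MI+FG-3149 and 0.49 (SE 0.16, adjusted p 0.025) in MI+IgG hearts. Wnt5b, the close relative of Wnt5a, was at 6.07, 4.43, 5.73, 5.49 and 6.51 CPM in MI+FG-3149 hearts, 4.87, 6.47, 4.76, 5.66 and 5.68 CPM in MI+IgG hearts and 4.05, 3.996 and 3.73 CPM in sham hearts. It too stood above sham in all 10 infarcted hearts, with a log2 fold change of 0.52 (SE 0.16, adjusted p 0.019) in MI+FG-3149 and 0.48 (SE 0.15, adjusted p 0.0221) in MI+IgG hearts. Both genes lost both calls without any 1 of the sham replicates; the MI+FG-3149 call of Wnt11 was also lost without MI+FG-3149 replicate 2, and the MI+IgG calls without MI+IgG replicate 2 and, for Wnt11, replicate 4. Without MI+IgG replicates 4 and 5 together both MI+IgG calls were lost, and that of Wnt5b was also lost without the 3 libraries apart on principal components. With the replicate number added to the fit, both Wnt5b calls were lost. In MI+FG-3149 the Wnt5b call was also lost on both log2 RPKM scales, and the Wnt11 call with log2(RPKM + 1). Over the alternatives the log2 fold change of Wnt5b in MI+FG-3149 went down to 0.041. The RPKM scales use its single highest transcript entry, and its entries hold only part of its reads, as given above. A processed pseudogene, Gm8398, overlaps Wnt11 on the other strand.

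Wnt9b, a ligand of kidney tubule and valve development, was near the detection limit at 1.28, 0.382, 0.637, 0.465 and 0.488 CPM in MI+FG-3149 hearts, 0.726, 0.957, 0.917, 1.24 and 2.61 CPM in MI+IgG hearts and 0.556, 0.271 and 0.497 CPM in sham hearts. MI+IgG hearts lay above sham, with replicate 5 well above the other 4, and MI+FG-3149 hearts overlapped sham. Against sham the log2 fold change was 0.57 in MI+FG-3149 hearts (SE 0.56, edgeR adjusted p 0.472) and 1.52 in MI+IgG hearts (SE 0.50, adjusted p 0.0238). For MI+IgG the log2 fold change was 0.99 and the adjusted p 0.125 without replicates 4 and 5, the pair with Myl7 reads; the call was also lost without MI+IgG replicate 5 alone and without sham replicate 2 or 3. With the replicate number added to the fit, and on both log2 RPKM scales, the MI+IgG call of Wnt9b was lost too. No sham library reached the minimum level for testing, so Wnt9b entered the test through infarcted libraries, and the same held for Rspo1 and Kremen2.

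R-spondins were sparse. Rspo1, 1 of 4 R-spondins and the only one tested, was at 0.342, 1.53, 3.73, 0.279 and 0.244 CPM in MI+FG-3149 hearts, 1.09, 1.80, 0.229, 1.002 and 1.77 CPM in MI+IgG hearts and 0.0795, 0.271 and 0.332 CPM in sham hearts. The infarcted hearts scattered from sham-like levels to the highest in MI+FG-3149 replicate 3, and neither group was called against sham (edgeR adjusted p 0.138 in MI+FG-3149 and 0.133 in MI+IgG). In MI+IgG hearts it was called higher than sham when only these 2 groups were fitted and without MI+FG-3149 replicate 3, with an adjusted p down to 0.0219 over the alternatives. The same library held 21.9 CPM of Upk3b, a gene of the mesothelium that covers the heart, against 3.97 CPM or less in the other MI+FG-3149, 4.21 CPM or less in MI+IgG and 0.166 CPM or less in sham hearts. Epicardial and mesothelial markers, with 1 of 10 (Muc16) at 0 in every library, summed to 12.6 to 58.2 CPM in MI+FG-3149 hearts, 14.6 to 27.6 CPM in MI+IgG hearts and 14.4 to 16.99 CPM in sham hearts, and their part in the Rspo1 levels was not tested.

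Of the R-spondin receptors, Lgr6 fell and Lgr4 did not change detectably. Lgr6, a marker of progenitor cells in skin (Entrez gene 329252, mm10 chromosome 1, 134986353 to 135105276, minus strand), was at 32.4, 33, 30.2, 34.8 and 33.3 CPM in MI+FG-3149 hearts, 43.4, 31.1, 27.9, 27.6 and 23.4 CPM in MI+IgG hearts and 56.6, 49.2 and 56.2 CPM in sham hearts. Every infarcted heart lay below every sham heart. The log2 fold change from sham was -0.72 (SE 0.14, edgeR adjusted p 0.0019) in MI+FG-3149 and -0.81 (SE 0.14, adjusted p 0.000506) in MI+IgG hearts, and of 18 exons with at least 20 reads 17 were lower in MI+FG-3149 and 18 in MI+IgG than in sham. Lgr4 averaged 37.2 ± 2.10 CPM in MI+FG-3149 hearts, 35.8 ± 2.005 CPM in MI+IgG hearts and 39.3 ± 4.12 CPM in sham hearts, with 95% intervals of the log2 fold change against sham of -0.24 to 0.08 in MI+FG-3149 and -0.29 to 0.02 in MI+IgG. Lgr5 had 72 reads in all and was not tested.

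Among the frizzled receptors 9 of 10 were tested. In MI+FG-3149 hearts Fzd2 and Fzd1 were higher than in sham and 7 were not called; in MI+IgG hearts Fzd2 and Fzd1 were higher, Fzd3 was lower and 6 were not called. Fzd2, a receptor for Wnt5a among other ligands (Entrez gene 57265, mm10 chromosome 11, 102604431 to 102608058, plus strand), was at 8.29, 9.85, 10.6, 7.54 and 10.2 CPM in MI+FG-3149 hearts, 5.52, 8.45, 8.09, 9.25 and 7.45 CPM in MI+IgG hearts and 2.62, 2.78 and 4.23 CPM in sham hearts. Every infarcted heart lay above every sham heart, and Fzd2 rose 2.92-fold (log2 1.55, SE 0.19, edgeR adjusted p 2.31e-05) in MI+FG-3149 and 2.44-fold (log2 1.29, SE 0.19, adjusted p 6.16e-05) in MI+IgG hearts.

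Fzd1, a receptor close to Fzd2 in sequence, was at 11.3, 14.6, 13.01, 14.6 and 13.1 CPM in MI+FG-3149 hearts, 9.87, 14.98, 13.2, 12.7 and 15.1 CPM in MI+IgG hearts and 9.70, 7.11 and 9.95 CPM in sham hearts. MI+FG-3149 hearts all lay above sham, and MI+IgG replicate 1 fell within the sham range. On the log2 scale Fzd1 rose by 0.59 (SE 0.14, edgeR adjusted p 0.00554) in MI+FG-3149 and 0.57 (SE 0.14, adjusted p 0.00476) in MI+IgG hearts, and both calls were lost without sham replicate 2. Fzd3, a receptor of planar polarity, was at 2.14, 3.67, 4.003, 3.54 and 2.602 CPM in MI+FG-3149 hearts, 2.32, 2.53, 1.61, 2.24 and 1.997 CPM in MI+IgG hearts and 4.77, 3.32 and 4.81 CPM in sham hearts. MI+IgG hearts lay below all sham hearts and MI+FG-3149 hearts overlapped both. Its log2 fold change against sham was -0.42 (SE 0.22, adjusted p 0.147) in MI+FG-3149 and -0.996 (SE 0.22, adjusted p 0.00171) in MI+IgG hearts. The other tested frizzleds (Fzd4 to Fzd9) had log2 fold changes between -0.12 and 0.27 in MI+FG-3149 and between -0.40 and 0.14 in MI+IgG hearts against sham.

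Co-receptors moved little. Lrp5, a WNT co-receptor known for bone mass, was at 108, 103, 107, 108 and 115 CPM in MI+FG-3149 hearts, 98.02, 116, 117, 95.7 and 101 CPM in MI+IgG hearts and 90.7, 90.5 and 96.05 CPM in sham hearts. All MI+FG-3149 hearts lay above sham, while MI+IgG replicate 4 fell within the sham range. Lrp5 rose by a log2 of 0.23 (SE 0.07, edgeR adjusted p 0.0179) in MI+FG-3149 and 0.19 (SE 0.07, adjusted p 0.0361) in MI+IgG hearts, and of 23 exons with at least 20 reads 21 were higher in MI+FG-3149 and 23 in MI+IgG than in sham. Both calls were lost without sham replicate 1 or 2. That of MI+IgG was also lost without MI+IgG replicate 2 or 3 and with only MI+IgG and sham fitted. Lrp6, Ror1 and Ror2 were not called against sham; Lrp6 averaged 89.2 ± 4.91 CPM in MI+FG-3149 hearts, 94.8 ± 0.946 CPM in MI+IgG hearts and 94.6 ± 2.55 CPM in sham hearts, with 95% intervals against sham of -0.19 to 0.02 in MI+FG-3149 and -0.10 to 0.11 in MI+IgG.

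Of 5 secreted frizzled-related proteins 4 were tested, and Sfrp2, Frzb and Sfrp1 rose against sham in each infarcted group while Sfrp5 was not called; Dkk3 was the tested dickkopf of 4 and rose as well. Dkk3, a secreted member of the dickkopf family whose action on WNT signalling varies between cell types (Entrez gene 50781, mm10 chromosome 7, 112116019 to 112159057, minus strand), was at 35.05, 28.3, 15.8, 16.8 and 20.2 CPM in MI+FG-3149 hearts, 27.9, 51.5, 23.5, 28.3 and 38.6 CPM in MI+IgG hearts and 1.03, 1.22 and 1.49 CPM in sham hearts. The lowest infarcted heart stood more than 10 times above the highest sham heart. Dkk3 rose 18.6-fold (log2 4.22, SE 0.51, edgeR adjusted p 0.000191) in MI+FG-3149 and 27.1-fold (log2 4.76, SE 0.49, adjusted p 4.17e-05) in MI+IgG hearts, and 7 of 7 exons with at least 20 reads were higher in each infarcted group than in sham.

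Sfrp2, which binds WNT ligands and is known from fibroblasts of healing tissue (Entrez gene 20319, mm10 chromosome 3, 83766321 to 83774314, plus strand), was at 73.2, 72.8, 26.3, 23.2 and 38.5 CPM in MI+FG-3149 hearts, 24.03, 84.6, 24.9, 40.1 and 32.5 CPM in MI+IgG hearts and 3.02, 1.56 and 2.57 CPM in sham hearts. No infarcted heart overlapped sham, and the infarcted hearts fell into a high part (MI+FG-3149 replicates 1 and 2 and MI+IgG replicate 2) and a lower one. It rose 19.99-fold (log2 4.32, SE 0.78, edgeR adjusted p 0.00239) in MI+FG-3149 and 17.6-fold (log2 4.14, SE 0.78, adjusted p 0.00233) in MI+IgG hearts. An antisense gene, Gm26771, overlaps Sfrp2, and 3 of 3 Sfrp2 exons were higher in each infarcted group than in sham.

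Frzb, also called Sfrp3, a WNT-binding protein first known from cartilage (Entrez gene 20378, mm10 chromosome 2, 80411970 to 80447396, minus strand), was at 23.2, 19.2, 14.3, 14.8 and 15.5 CPM in MI+FG-3149 hearts, 16.7, 32.7, 17.8, 20.4 and 20.7 CPM in MI+IgG hearts and 5.01, 3.66 and 4.31 CPM in sham hearts. Sham and infarcted hearts did not overlap. Frzb rose 4.05-fold (log2 2.02, SE 0.28, edgeR adjusted p 0.000219) in MI+FG-3149 and 5.05-fold (log2 2.34, SE 0.27, adjusted p 3.80e-05) in MI+IgG hearts, and its upstream window above is the 1 of the 4 printed that holds the TCF/LEF core.

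Sfrp1, the founding secreted frizzled-related protein (Entrez gene 20377, mm10 chromosome 8, 23411502 to 23449632, plus strand), was at 55.4, 55.3, 41.5, 25.5 and 27.2 CPM in MI+FG-3149 hearts, 36.5, 95.3, 38.4, 37.5 and 40.4 CPM in MI+IgG hearts and 15.2, 14.8 and 15.7 CPM in sham hearts. All infarcted hearts lay above sham, and MI+IgG replicate 2 stood far above the other 4 of its group. Sfrp1 rose 2.70-fold (log2 1.43, SE 0.44, edgeR adjusted p 0.0318) in MI+FG-3149 and 3.27-fold (log2 1.71, SE 0.43, adjusted p 0.0117) in MI+IgG hearts. The MI+FG-3149 call was lost without any 1 of the sham replicates, without MI+FG-3149 replicate 1, 2 or 3, and with limma voom. The MI+IgG call was kept without each library in turn.

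**Figure D2:**
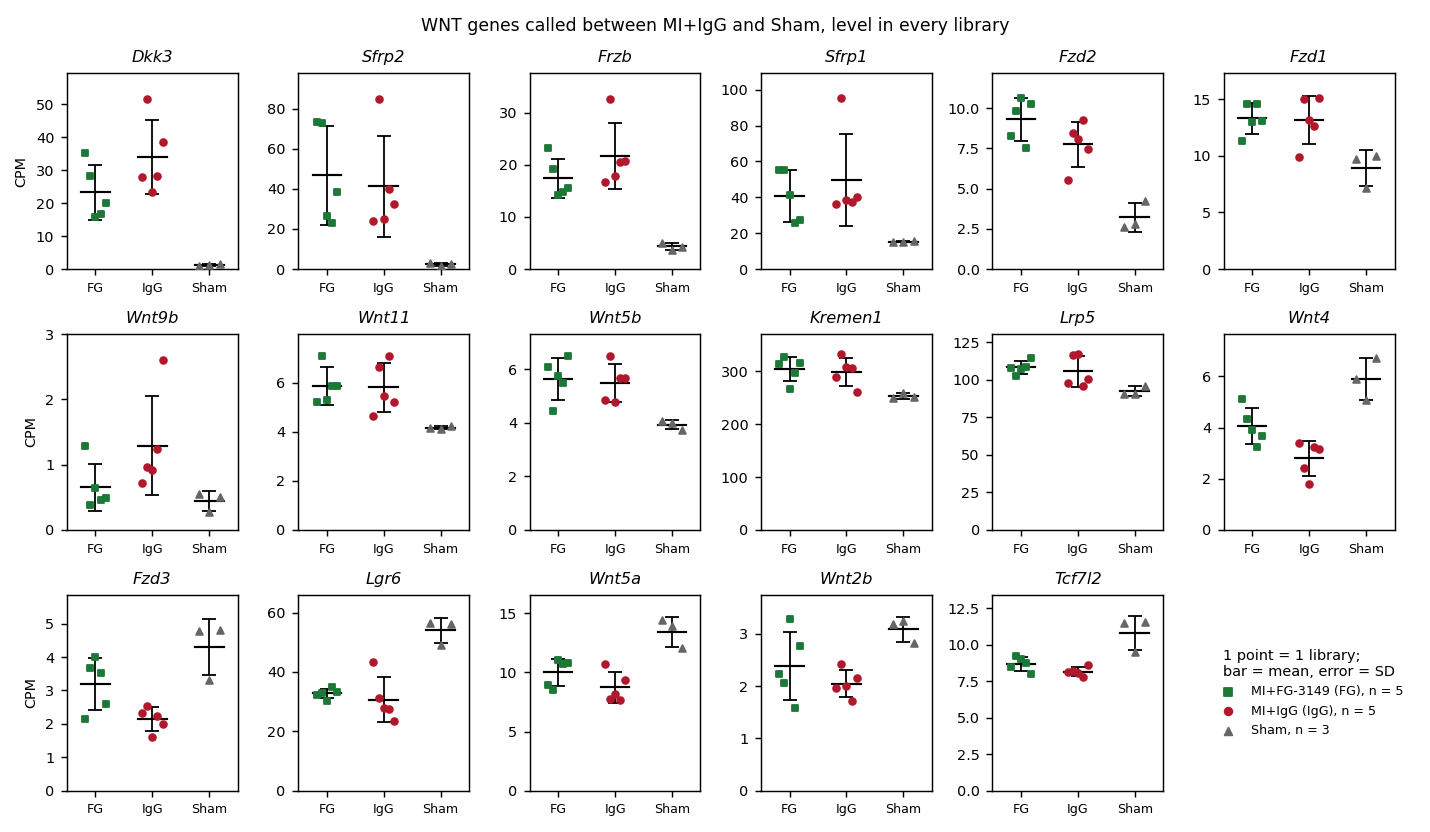
CPM in every library of the 17 WNT genes called between MI+IgG and sham, with MI+FG-3149 (squares, n = 5), MI+IgG (circles, n = 5) and sham (triangles, n = 3) from left to right; long bars are means, whiskers SD, and each axis starts at 0. In the first 4 panels (Dkk3, Sfrp2, Frzb and Sfrp1) every infarcted heart is above every sham heart; in the panels of Lgr6, Wnt5a and Tcf7l2 every infarcted heart is below.

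Sfrp5, an antagonist known from fat tissue, was at 0.684, 0.458, 0.273, 0.0930 and 0.732 CPM in MI+FG-3149 hearts, 0.0726, 0.0563, 0.172, 2.003 and 2.31 CPM in MI+IgG hearts and 0.636, 0.880 and 1.08 CPM in sham hearts. MI+IgG replicates 4 and 5 were the highest of all libraries and the other 3 MI+IgG hearts lay below every sham heart, as did 3 of the 5 MI+FG-3149 hearts. Replicates 4 and 5 are the libraries with Myl7 reads, given above, and of Sln, another gene of atrial muscle, they held 0.530 and 2.31 CPM, against at most 0.0829 CPM elsewhere (sham replicate 3). The 6 atrial markers together, of which 0 were at 0 in every library and Nppa gives most reads, summed to 1153 to 2780.3 CPM in MI+FG-3149 hearts, 1548 to 3539 CPM in MI+IgG hearts and 122 to 145 CPM in sham hearts. Within MI+IgG these atrial sums were 2312 and 2366 CPM in replicates 4 and 5, below 3539 and 2612 CPM in replicates 2 and 3. Adipocyte markers summed to 5.77 and 48.5 CPM in MI+IgG replicates 4 and 5. They reached 41.5 and 3.97 CPM in MI+FG-3149 replicates 3 and 2, and at most 0.744 CPM in any other library. The part of atrial tissue or of fat in the levels of Sfrp5 and Wnt9b was not tested. The edgeR adjusted p against sham was 0.552 in MI+FG-3149 and 0.975 in MI+IgG.

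Markers of activated fibroblasts were also higher in infarcted than in sham hearts. These markers, of which Acta2 was listed at 0 in every library and 15 of 16 were not, summed to 722 to 1199.5 CPM in MI+FG-3149 hearts, 1157 to 2249 CPM in MI+IgG hearts and 104 to 112 CPM in sham hearts. MI+IgG replicate 2 had both the highest sum and the highest Dkk3, Frzb, Sfrp1 and Sfrp2. The next highest Sfrp2 and Sfrp1 were in MI+FG-3149 replicates 1 and 2, whose marker sums of 1199.5 and 1118 CPM lay below those of MI+IgG replicates 3 to 5. Resting fibroblast markers, with 0 of 14 at 0 in every library, summed to 3895 to 4434 CPM in MI+FG-3149 hearts, 3948 to 5024 CPM in MI+IgG hearts and 2941 to 3132 CPM in sham hearts. Valve and tendon-like markers, of which 3 of 8 are also on the activated fibroblast list and 0 were at 0 in every library, summed to 103 to 276 CPM in MI+FG-3149 hearts, 146 to 356 CPM in MI+IgG hearts and 16.7 to 18.8 CPM in sham hearts. The part of these cells in the levels of Dkk3, Sfrp2, Frzb and Sfrp1 was not tested.

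**Figure D3:**
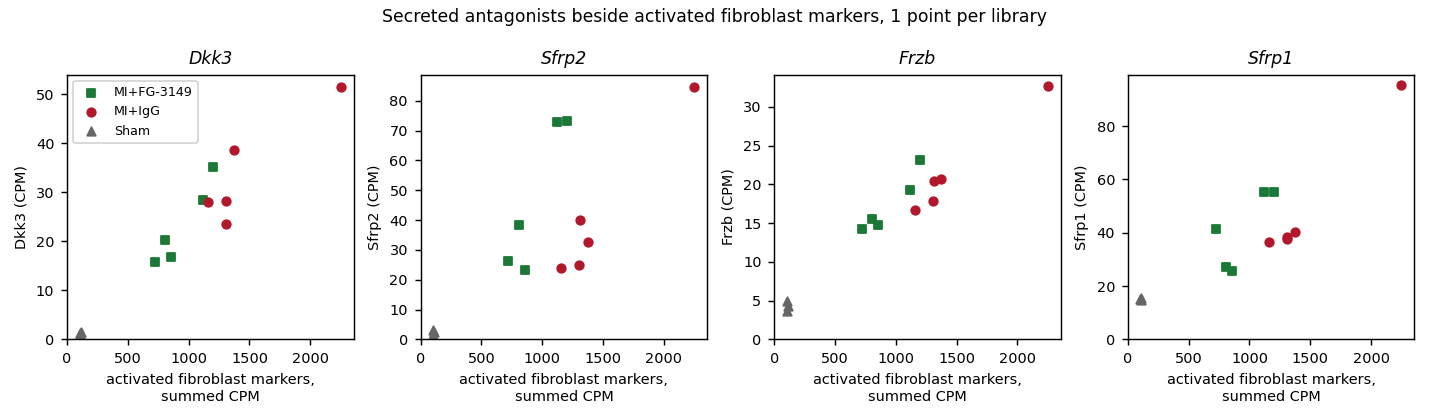
CPM of Dkk3, Sfrp2, Frzb and Sfrp1 against the summed CPM of activated fibroblast markers, 1 point per library, with squares for MI+FG-3149 (n = 5), circles for MI+IgG (n = 5) and triangles for sham (n = 3). Sham libraries sit at the lower left of each panel, MI+IgG replicate 2 at the upper right, and for Sfrp2 and Sfrp1 a pair of MI+FG-3149 libraries stand above the other libraries of similar marker sum.

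Kremen1, the dickkopf receptor with the highest level of the set, rose slightly. It was at 313, 327, 267, 298 and 316 CPM in MI+FG-3149 hearts, 289, 333, 308, 307 and 260.2 CPM in MI+IgG hearts and 249, 259 and 252 CPM in sham hearts. Every infarcted heart lay above every sham heart. Its log2 fold change was 0.27 (SE 0.07, edgeR adjusted p 0.0103) in MI+FG-3149 and 0.24 (SE 0.07, adjusted p 0.0148) in MI+IgG hearts, the call in MI+IgG being lost without sham replicate 1. Kremen2 averaged 0.563 ± 0.253 CPM in MI+FG-3149 hearts, 0.791 ± 0.180 CPM in MI+IgG hearts and 0.585 ± 0.115 CPM in sham hearts, and was not called. Of its exon reads 95.1% lay in the last exon, which has 36.5% of the length. An antisense gene, 9530082P21Rik, overlaps Kremen2, and whether these reads come from Kremen2 transcripts was not tested.

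Downstream of the receptors, Axin2, a scaffold of the destruction complex whose gene is a widely used beta-catenin target, did not differ detectably. It averaged 4.47 ± 0.518 CPM in MI+FG-3149 hearts, 4.86 ± 1.18 CPM in MI+IgG hearts and 4.37 ± 0.766 CPM in sham hearts. The 95% interval of its log2 fold change was -0.38 to 0.44 in MI+FG-3149 and -0.25 to 0.55 in MI+IgG hearts against sham. Axin1, its more evenly expressed relative, averaged 28.6 ± 1.35 CPM in MI+FG-3149 hearts, 30.5 ± 1.63 CPM in MI+IgG hearts and 29.1 ± 4.17 CPM in sham hearts, and was not called either. Lef1, another beta-catenin target, had 41 reads over all libraries and was not tested.

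Of the TCF/LEF factors, Tcf7l2 was called lower on gene-level counts. Tcf7l2, the factor known from diabetes risk and gut epithelium (Entrez gene 21416, mm10 chromosome 19, 55741810 to 55933655, plus strand), was at 8.46, 9.24, 9.01, 8.75 and 7.97 CPM in MI+FG-3149 hearts, 8.13, 8.16, 8.03, 7.78 and 8.60 CPM in MI+IgG hearts and 11.4, 9.48 and 11.5 CPM in sham hearts. Every infarcted heart lay below every sham heart. Tcf7l2 fell by 0.31 (SE 0.10, edgeR adjusted p 0.0277) in MI+FG-3149 hearts and fell by 0.41 (SE 0.10, adjusted p 0.00421) in MI+IgG hearts on the log2 scale. The MI+FG-3149 call was lost without sham replicate 1 or 3 or MI+FG-3149 replicate 5. It was also lost with the DESeq2 test, with only these groups fitted, with the replicate number in the fit and on both log2 RPKM scales. The MI+IgG call was lost on both RPKM scales, and its log2 fold change ran from -0.497 to -0.024 over the alternatives. These scales use the single highest of the transcript entries of Tcf7l2. Summed over entries, Tcf7l2 averaged 2.13 ± 0.142 RPKM in MI+FG-3149, 2.01 ± 0.0697 RPKM in MI+IgG and 2.74 ± 0.348 RPKM in sham hearts. Of 13 exons with at least 20 reads 7 were higher and 6 lower in MI+FG-3149, and 6 higher and 7 lower in MI+IgG, than in sham. The last exon, with 57.8% of the exon reads, was at 4.79 CPM in MI+FG-3149, 4.64 CPM in MI+IgG and 6.87 CPM in sham hearts. The adjusted p of Tcf7l2 over the alternatives ran up to 0.391 in MI+FG-3149 and 0.985 in MI+IgG. Tcf7l1 and Tcf7 were not called.

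**Figure D4:**
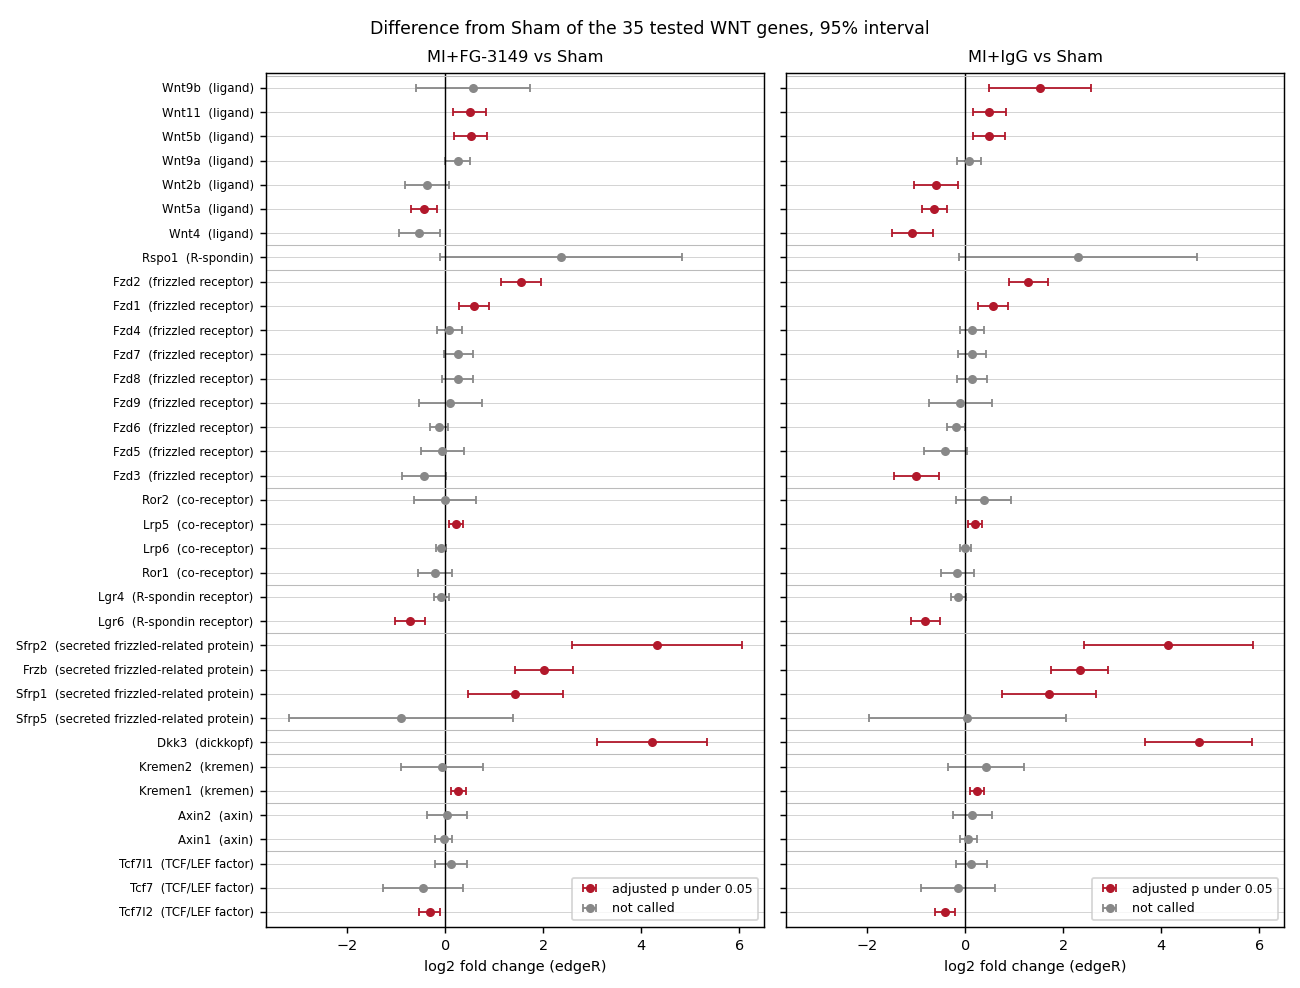
Log2 fold change from sham of the 35 tested WNT genes in MI+FG-3149 (left) and MI+IgG hearts (right), with 95% intervals from the edgeR fit, grouped by role; dark red points have an adjusted p under 0.05. Both panels use the same 3 sham libraries, so that their likeness is no separate evidence. Sfrp2 and Dkk3 lie farthest to the right in both, and the intervals of Rspo1 and Sfrp5 are the widest.

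Beside the fold changes, 13 of the 35 tested genes had no overlap between MI+FG-3149 and sham libraries (32.2% of all genes) and 15 had none between MI+IgG and sham (35.8% of all genes). The median log2 fold change of the 35 genes was 0.09 in MI+FG-3149 and 0.13 in MI+IgG hearts, against 0.00 over all genes for each. Both comparisons share the 3 sham libraries, so their values are given side by side and not as 2 independent results. Without MI+FG-3149 replicate 3 and MI+IgG replicates 1 and 2 the counts were 13 in MI+FG-3149 and 16 in MI+IgG; without MI+IgG replicates 4 and 5 they were 13 in each. Leaving out sham replicate 2 gave 7 calls in MI+FG-3149 and 11 in MI+IgG hearts, and leaving out sham replicate 1 gave 7 in MI+FG-3149 hearts. Calls over all genes moved as well, with 2641 to 4088 in MI+FG-3149 and 3329 to 4808 in MI+IgG hearts when 1 library was left out. The share of all genes in each of these settings is not given here, so whether the set stayed above it cannot be read from these counts.

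The comparison of FG-3149 with IgG asked whether blocking CTGF changed these genes in infarcted hearts. No gene of the set passed the test: 0 of 35 were called by edgeR, by DESeq2 and by limma voom, and 3 (Fzd3, Wnt4 and Wnt9b) had an unadjusted p under 0.05 in edgeR, beside 13.8% of all genes. The smallest adjusted p was 0.171, for Wnt4. Wnt4 averaged 4.06 ± 0.717 CPM in MI+FG-3149 and 2.80 ± 0.686 CPM in MI+IgG hearts (n = 5 each), a log2 fold change of 0.55 (95% interval 0.17 to 0.94). Fzd3 averaged 3.19 ± 0.784 CPM in MI+FG-3149 and 2.14 ± 0.355 CPM in MI+IgG hearts, with a log2 fold change of 0.57 (95% interval 0.15 to 0.99, edgeR adjusted p 0.196). Both genes were lower in MI+IgG hearts than in sham, as given above, and the MI+IgG libraries enter both comparisons with opposite sign.

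Wnt9b averaged 0.651 ± 0.365 CPM in MI+FG-3149 and 1.29 ± 0.761 CPM in MI+IgG hearts, a log2 fold change of -0.95 (95% interval -1.78 to -0.12, edgeR adjusted p 0.289). Dkk3 averaged 23.2 ± 8.23 CPM in MI+FG-3149 and 33.96 ± 11.2 CPM in MI+IgG hearts, with a log2 fold change of -0.54 (95% interval -1.13 to 0.04, adjusted p 0.401). For Sfrp2, Frzb and Sfrp1 the intervals were -0.80 to 1.16, -0.73 to 0.09 and -1.01 to 0.46, and a 2-fold difference lies within those of Sfrp2 and Sfrp1. The libraries of both groups overlapped for every tested gene but Lrp6 (1 of 35, beside 3.14% of all genes), which averaged 89.2 ± 4.91 CPM in MI+FG-3149 and 94.8 ± 0.946 CPM in MI+IgG hearts (log2 fold change -0.09, 95% interval -0.18 to 0.01, adjusted p 0.4).

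In 20 of the 35 genes the 95% interval between both infarcted groups stayed within a 1.5-fold change in either direction, and in 27 within 2-fold. The 8 that reached 2-fold were Rspo1, Tcf7, Dkk3, Kremen2, Wnt9b, Sfrp1, Sfrp2 and Sfrp5, genes with few reads or with a wide spread between animals. Without MI+FG-3149 replicate 3 and MI+IgG replicates 1 and 2, 1 gene was called, Lgr6 (higher in MI+FG-3149, edgeR adjusted p 0.0428); without MI+IgG replicates 4 and 5, 0 were. Activated fibroblast markers summed to 722 to 1199.5 CPM in MI+FG-3149 and 1157 to 2249 CPM in MI+IgG hearts, with 0 of 15 tested called higher and 1 (Cthrc1) lower; the part of these cells, and of the smaller MI+FG-3149 libraries, was not tested.

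**Figure D5:**
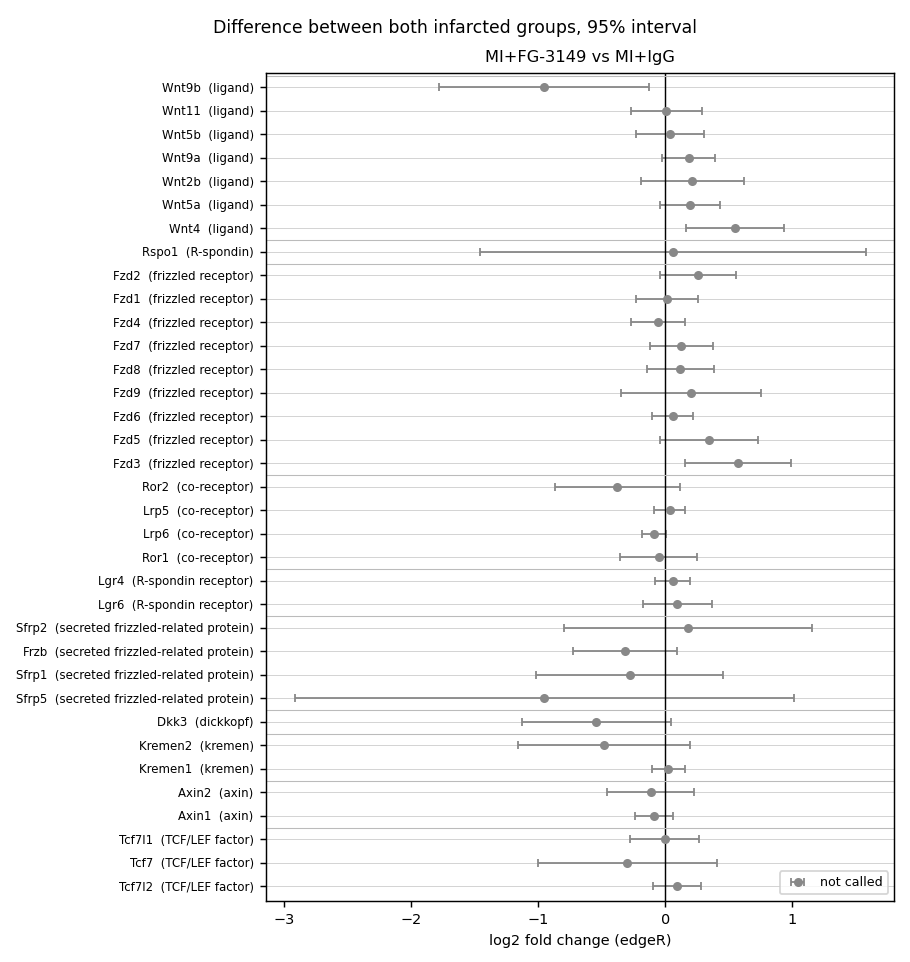
Log2 fold change of MI+FG-3149 over MI+IgG hearts (n = 5 each) for the 35 tested WNT genes, with 95% intervals from the edgeR fit, grouped by role. No gene has an adjusted p under 0.05; the intervals of Wnt4, Fzd3 and Wnt9b leave 0 outside, and those of Sfrp5 and Rspo1 are the widest.

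The 22 genes without enough reads fell into 7 listed at 0 in all 13 libraries and 15 with some reads. The 7 were Wnt3, Wnt3a, Wnt8a, Wnt8b, Wnt10a, Rspo2 and Rspo4; 0 reads over all libraries allow up to 0.0169 CPM, and 0 reads in 1 library up to 0.171 to 0.274 CPM, for counting error only and with 3 reads as the upper limit. Acta2, an actin of smooth muscle, is listed at 0 too, so a 0 in this table does not by itself show that a gene is silent. The other 15 held 1 to 78 reads each over all libraries. Wnt10b, with 78 reads, averaged 0.360 ± 0.196 CPM in MI+FG-3149 hearts, 0.540 ± 0.262 CPM in MI+IgG hearts and 0.311 ± 0.258 CPM in sham hearts, and Wnt2, with 57, averaged 0.305 ± 0.227 CPM in MI+FG-3149 hearts, 0.394 ± 0.159 CPM in MI+IgG hearts and 0.208 ± 0.292 CPM in sham hearts. Sfrp4, a phosphate-regulating member of its family with 59 reads, averaged 0.206 ± 0.143 CPM in MI+FG-3149 hearts, 0.539 ± 0.198 CPM in MI+IgG hearts and 0.0954 ± 0.102 CPM in sham hearts. Dkk2 had 0.0855, 0.229, 0, 0.0930 and 0.163 CPM in MI+FG-3149 hearts, 0.0726, 0.901, 0.0573, 0.471 and 0.154 CPM in MI+IgG hearts and 0, 0 and 0.0829 CPM in sham hearts, and Dkk1, the best known inhibitor of Lrp5 and Lrp6, never rose above 0.186 CPM. Rspo3, an R-spondin of blood vessels, had 23 reads, 4 in MI+FG-3149, 19 in MI+IgG and 0 in sham hearts.

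Other genes of the pathway were taken from 6 lists, which hold 133 tested genes outside the set. Against sham, 27 were higher, 20 lower and 86 not called in MI+FG-3149 hearts (35.3% called, beside 29.5% of all genes). In MI+IgG hearts 31 were higher, 22 lower and 80 not called (39.8% called, beside 33.7% of all genes). By direction, 15.6% of all genes were higher and 13.9% lower in MI+FG-3149, and 17.8% higher and 15.9% lower in MI+IgG hearts. Between the infarcted groups 1 of the 133 was called, Cthrc1, lower in MI+FG-3149 (0.752%, beside 1.07% of all genes). For these lists no recount is given without genes that, like Cthrc1, entered the test through infarcted libraries.

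Genes of WNT secretion and extracellular cofactors (15 tested) were called 7 higher and 1 lower in MI+FG-3149, and 8 higher and 1 lower in MI+IgG hearts against sham, which is 53.3% called in MI+FG-3149 and 60.0% in MI+IgG, beside 29.5% and 33.7% of all genes. The median log2 fold change was 0.57 in MI+FG-3149 and 0.61 in MI+IgG. Cthrc1, a secreted protein of activated fibroblasts that binds WNT and frizzled proteins, was at 2.48, 2.29, 1.18, 1.30 and 1.87 CPM in MI+FG-3149 hearts, 2.98, 7.32, 3.15, 3.54 and 3.61 CPM in MI+IgG hearts and 0, 0.0677 and 0 CPM in sham hearts. The infarcted groups did not overlap with each other, and sham hearts had 1 read in all, so that no fold against sham is given. Cthrc1 entered the test through infarcted libraries and is counted above as higher in each infarcted group, so its direction there was set by the minimum level. Its log2 fold change between MI+FG-3149 and MI+IgG was -1.17 (SE 0.28, edgeR adjusted p 0.0491), close to the threshold, and its adjusted p ran from 0.0114 to 0.159 over the alternatives. Reck and Gpr124, which together present Wnt7 ligands to frizzleds on brain vessels, had log2 fold changes against sham of 0.75 and 0.57 in MI+FG-3149 and of 0.87 and 0.61 in MI+IgG hearts, all 4 called. The glypican Gpc6 rose by 0.62 in MI+FG-3149 and 0.91 in MI+IgG hearts on the log2 scale.

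Of 30 tested genes listed as beta-catenin targets, 16 were higher and 1 lower in MI+FG-3149, and 15 higher and 2 lower in MI+IgG hearts than in sham, or 56.7% called in each, beside 29.5% of all genes in MI+FG-3149 and 33.7% in MI+IgG. The median log2 fold change was 0.63 in MI+FG-3149 and 0.50 in MI+IgG. Met, the receptor of hepatocyte growth factor, averaged 5.06 ± 0.292 CPM in MI+FG-3149 hearts, 4.82 ± 0.842 CPM in MI+IgG hearts and 1.32 ± 0.352 CPM in sham hearts. Wisp1, a matricellular protein related to CTGF, averaged 5.85 ± 0.9996 CPM in MI+FG-3149 hearts, 8.52 ± 2.61 CPM in MI+IgG hearts and 2.13 ± 0.0297 CPM in sham hearts, and Nkd2, an intracellular WNT inhibitor, averaged 6.70 ± 1.72 CPM in MI+FG-3149 hearts, 11.4 ± 3.68 CPM in MI+IgG hearts and 1.74 ± 0.695 CPM in sham hearts. Myc, the growth regulator, averaged 4.62 ± 1.10 CPM in MI+FG-3149 hearts, 5.22 ± 0.586 CPM in MI+IgG hearts and 1.83 ± 0.233 CPM in sham hearts. These 4 were called higher in each infarcted group, with log2 fold changes of 1.32 to 1.95 in MI+FG-3149 and 1.49 to 2.73 in MI+IgG hearts. Of the 30, 13 were not called in each comparison with sham, and Axin2, a target within the set, did not differ detectably. The part of activated fibroblasts in the levels of the listed targets was not tested.

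The intracellular lists held calls in both directions. Their total shares were below or near those of all genes, 29.5% in MI+FG-3149 and 33.7% in MI+IgG hearts. Of 31 genes of the destruction complex and of beta-catenin itself, 3 were higher and 5 lower in MI+FG-3149, and 3 were higher and 5 lower in MI+IgG hearts, 25.8% in each. Higher in both were Tnks, an enzyme that marks axin for degradation (log2 0.32 in MI+FG-3149 and 0.31 in MI+IgG), and Csnk1d, a casein kinase (0.21 in MI+FG-3149 and 0.25 in MI+IgG). Lower in both was Gsk3b, the kinase that marks beta-catenin for degradation (-0.22 in MI+FG-3149 and -0.20 in MI+IgG). Of 17 nuclear partners of beta-catenin, 1 was higher and 2 lower in MI+FG-3149, and 2 were higher and 2 lower in MI+IgG (17.6% called in MI+FG-3149 and 23.5% in MI+IgG), Bcl9 among the lower ones (-0.31 in MI+FG-3149 and -0.25 in MI+IgG). Of the 3 tested ligases and related enzymes of receptor turnover, 0 were called in MI+FG-3149, and 1 was lower in MI+IgG, Ube2k (log2 -0.17, edgeR adjusted p 0.0309). Of 39 genes of the planar polarity and calcium branch, 1 was higher and 11 lower in MI+FG-3149, and 4 were higher and 11 lower in MI+IgG, which is 30.8% called in MI+FG-3149 and 38.5% in MI+IgG. Of all genes, 15.6% were higher and 13.9% lower in MI+FG-3149, and 17.8% higher and 15.9% lower in MI+IgG hearts. Most calls of this branch were thus lower, unlike those of all genes. Among the lower ones were Camk2d, the main calmodulin-dependent kinase II of heart muscle (log2 -0.30 in MI+FG-3149 and -0.37 in MI+IgG), and Celsr2, a planar polarity cadherin (-0.57 in MI+FG-3149 and -0.84 in MI+IgG).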

How the data were processed

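The authors deposited estimated counts per gene, transcript and exon, not normalized, and RPKM values, a level per length and depth, for 29163 transcripts; the genome build was mm10 per the submitters' processing notes. Per the labels' protocols, 500 ng of total RNA entered a stranded library kit, and the 13 libraries were read from 1 end, 75 bases long, on the same flow cell. The aligner, the counting tool and its strand setting are not given in the sources used here. Gene-level estimated counts were rounded to whole numbers, and 379 entries repeating a symbol, with 0.0% of reads, were left out. With R 4.3.3 and edgeR 4.0.16, genes were kept by filterByExpr, about 0.782 CPM in at least 3 libraries, which left 13434; all 13 libraries were fitted together with TMM scaling, glmQLFit with robust dispersions and glmQLFTest, adjusted by Benjamini-Hochberg over all genes. SE is the absolute log2 fold change over the square root of F. Alternatives used DESeq2 1.42.0, limma 3.58.1 (voom, and log2 RPKM with 1 or 0.1 added), other filters and fewer libraries. The test was also tried on counts simulated from the observed means and fitted dispersions, for MI+IgG against sham only. The outcome is not given here. Sequences are from RefSeq, and overlapping genes from GENCODE M21. The group sizes are given as animals in the series design, and each library was taken as 1 animal. The WNT genes and the other lists were chosen with earlier results of these data known. Values in every library were allowed for genes called in any comparison; from each other list, up to 5 genes with the smallest p in MI+IgG against sham could be named. Myl7, Sln, Upk3b and Col1a1, and the library values of Rspo1, Sfrp5 and Dkk2, fall outside this rule and were chosen after their values were seen. Protein sequences were not used here.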

Additional observations from a re-analysis of the deposited data

Results flagged for a closer look

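In 70 groups of 5 infarcted libraries (35 tested genes, 2 groups each), 5 had 1 library far from the other 4 by Dixon's test; chance gives about 1 in 20 groups. In MI+IgG replicate 2, Frzb was at 32.7 CPM, against 16.7 to 20.7 CPM in the other MI+IgG hearts, Sfrp1 was at 95.3 CPM, against 36.5 to 40.4 CPM, and Sfrp2 was at 84.6 CPM, against 24.0 to 40.1 CPM. The same library had activated fibroblast markers summing to 2249 CPM and Col1a1, a main collagen of scar, at 361 CPM, the highest of its group in each. Wnt9b was at 1.28 CPM in MI+FG-3149 replicate 1, against 0.382 to 0.637 CPM in the other MI+FG-3149 hearts, and at 2.61 CPM in MI+IgG replicate 5, against 0.726 to 1.24 CPM in the other MI+IgG hearts.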

How the results depend on the processing

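Over 24 alternatives, 6 of the 13 genes called in MI+FG-3149 against sham kept the call in each (Dkk3, Frzb, Fzd2, Kremen1, Lgr6 and Sfrp2), as did 8 of the 17 called in MI+IgG against sham (Dkk3, Frzb, Fzd2, Fzd3, Lgr6, Sfrp1, Sfrp2 and Wnt4). Wnt5a in MI+FG-3149 against sham turned to 0.226 with log2(RPKM + 1) and 0.370 with log2(RPKM + 0.1), which use the single highest transcript entry of a gene; the cause was not tested further, and its RPKM summed over entries is lower than in sham. Leaving out 1 library at a time gave 7 to 14 WNT genes called in MI+FG-3149 and 11 to 18 in MI+IgG against sham, and 0 to 0 between the infarcted groups. The ranges were 34 to 47 and 43 to 54 for the other pathway genes against sham, and 0 to 5 between the infarcted groups. Over all genes they were 2641 to 4088 in MI+FG-3149 and 3329 to 4808 in MI+IgG against sham, and 68 to 271 between the infarcted groups. Of the other settings, those that moved a count by over 1.5 times were between MI+FG-3149 and MI+IgG. The count of WNT genes was 1 without the 3 libraries apart on principal components (a setting chosen after seeing the data). The 1 other pathway gene became 2 with DESeq2 size factors, 3 with the DESeq2 test, 0 when only the 2 groups compared were fitted, 5 with log2(RPKM + 1), 4 with log2(RPKM + 0.1), 2 without Rn45s, 0 without the 3 libraries apart and 0 without MI+IgG replicates 4 and 5 (also chosen after seeing the data). The 144 of all genes became 278 with the DESeq2 test, 83 with only the 2 groups compared, 232 with log2(RPKM + 1), of which 112 were higher and 120 lower against 123 and 21, and 70 without MI+IgG replicates 4 and 5. Without the low-count filter, Sfrp4, Dkk2 and Rspo3 were called higher in MI+IgG than in sham and Wnt2b was not called. These 3 calls rest on few reads: Sfrp4, Dkk2 and Rspo3 held 43, 28 and 19 in all MI+IgG hearts and 4, 1 and 0 in all sham hearts. Of the Dkk2 reads, 16 were in MI+IgG replicate 2. Same-numbered replicates correlated by -0.042 to 0.178. No other pairs were set beside these values, so whether the numbers pair the animals is not settled. With the replicate block the calls were 11 WNT genes in MI+FG-3149 and 14 in MI+IgG against sham, and 0 between the infarcted groups, 46, 53 and 1 other pathway genes, and 3576, 4139 and 215 of all genes. Depth limits genes under about 1 CPM, where a library holds around 10 reads.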

Other observations

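The deposited file splits Wnt5a between a pair of RefSeq transcripts. One of them was given 61.5% to 88.2% of Wnt5a in MI+FG-3149 hearts, 36.3% to 57.3% in MI+IgG hearts and 28.0% to 65.8% in sham hearts. The first exon of Wnt5a held 1.05 CPM in MI+FG-3149, 0.63 CPM in MI+IgG and 0.81 CPM in sham hearts, and first exons of most other genes of the set were also higher in MI+FG-3149 than in MI+IgG hearts. The part of this in the shares was not tested, and no test was run on the shares.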
